A study of Rattus norvegicus with 59 samples.

Results

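High glucose (HG, 20 mM glucose for 72 h, no drugs) was compared to normal glucose (NG, 11.1 mM glucose for 72 h) in INS-1E cells, using 20 libraries per group and thus 40 of the 59 libraries of the study. The members were chosen by label, and the 19 libraries from cells that also received drugs were not used. INS-1E is a single clonal line from a rat insulinoma, so the 20 replicates of a group, which the study's methods describe as independent experiments, share 1 genome and 1 tumour origin, and p-values measure the spread between these experiments. Polyadenylated RNA was sequenced without strand information, and the authors deposited FPKM (fragments per kilobase of transcript, relative to the mapped total of each library), a level that is scaled for length.

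The pancreatic β-cell secretes insulin in proportion to the glucose it metabolises. Glucose enters through transporters, is phosphorylated and is broken down to pyruvate, and ATP from the mitochondria closes a potassium channel, which lets calcium in and drives the release of granules. Carbon that is not oxidised can be stored as glycogen or lipid. Glucose also acts on transcription, in part through the factor ChREBP, which binds next to genes of glycolysis and fatty acid synthesis.

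Steps between low FPKM values showed the number of reads behind each library, which was 6.94 to 9.45 M for NG (median 8.56) and 7.02 to 10.2 M for HG (median 8.70), and 1 FPKM of a transcript of median length was 16.3 reads. On the first principal component (14.4% of the variance) all NG libraries lay apart from all HG libraries, and HG replicate 13 lay closest to NG at 5.13, against 7.47 to 15.9 in the other HG libraries. Of 15 β-cell markers, 13 symbols were in the table, and their summed level was 75314 to 119252 FPKM in NG (median 91356) and 43862 to 84813 FPKM in HG (median 63263). Glucagon (Gcg), the α-cell hormone, was also present, at a mean of 947 ± 349 FPKM in NG and 1164 ± 348 FPKM in HG, and the difference did not pass the test (adjusted p = 0.13, log2 fold change 0.33 with SE 0.17), although it passed with the replicate number as a block (adjusted p = 4.5e-04 in limma). The summed markers of each of δ and PP, acinar, duct, endothelial, immune and fibroblast cells were at most 16.4 FPKM in any library, so the label as a β-cell line fits the data. Fewer cells of a type and less RNA per cell cannot be told apart in such bulk samples.

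The 10504 transcripts (10129 symbols) that averaged at least 1 FPKM were compared in limma on log2(FPKM + 1), where changes of low transcripts appear too small, and called at a Benjamini-Hochberg adjusted p under 0.05. With HG, 1856 transcripts rose (17.7%) and 2292 fell (21.8%), so that 39.5% were past the threshold. These shares are the background against which each gene group is read, together with the median log2 fold change of all tested transcripts, -0.02. A bare number after a gene name is its log2 fold change, HG against NG, and levels are given as mean ± SD (n = 20) or as the lowest to highest library. Most changes were small. The median absolute log2 fold change of the called transcripts was 0.18, and 3266 of 4148 (78.7%) were under 0.3. A typical raised transcript was at 1.14-fold and a typical lowered one at 0.870-fold of NG. Rises over 1 on the log2 scale numbered 40 (0.381%), and falls under -1 numbered 10 (0.0952%). All HG libraries lay above all NG libraries for 133 transcripts (1.27%) and below them for 55 (0.524%). The libraries were also divided into 4 sets of 15 consecutive sample numbers, each with 5 NG and 5 HG libraries, because the study's methods describe 4 sequencing batches of 15 without listing them. In all 4 sets 57.9% of all tested transcripts and 97.0% of the called ones (4022) had a difference of 1 sign, and since the calls were made on the same libraries, the second share was bound to be higher.

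**Figure D1:**
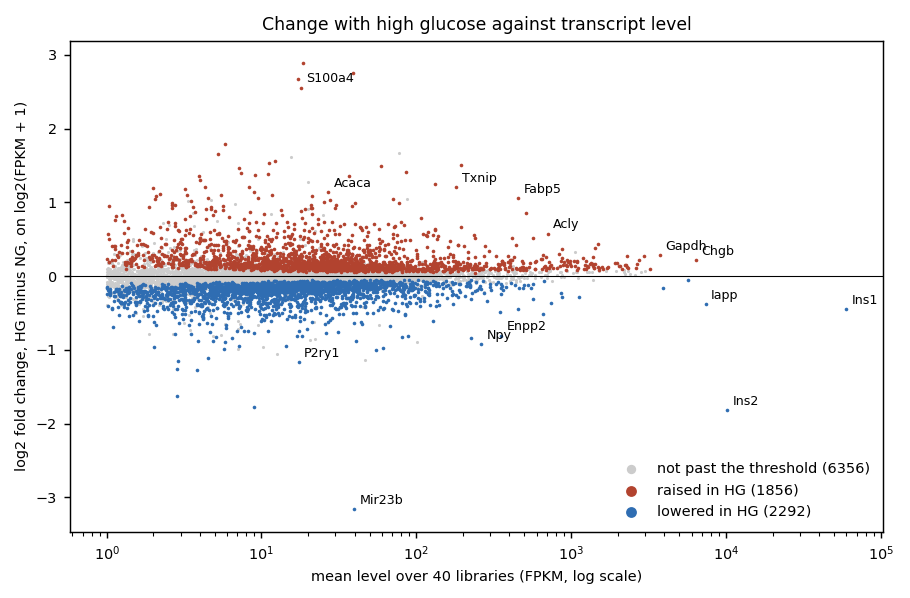
Change with HG against the level of each of the 10504 tested transcripts, with the mean FPKM over 40 libraries on a log x axis and the log2 fold change (HG against NG, log2(FPKM + 1)) on the y axis; raised, lowered and uncalled transcripts have different colours. Rises outnumber falls past 1 (40 against 10), whereas most called transcripts lie close to 0, with 3266 of 4148 under 0.3 in size.

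The share of raised transcripts grew with level, from 12.1% in the lowest of 5 equal bins of mean FPKM to 28.5% in the highest, whereas the share of lowered transcripts was 21.0% in the lowest bin and 18.6% in the highest. Lowered transcripts were also more frequent among long transcripts (24.8% of the longest of 5 bins and 17.1% of the shortest). FPKM is scaled to the mapped total of each library. When all FPKM values of a library were added, the rat insulin genes Ins1 and Ins2 made up 14.2% ± 1.88 (SD, n = 20) for NG. For HG they made up 9.51% ± 1.67 (n = 20). These are shares of levels scaled for length, and not of reads. With median-ratio scaling, which does not use the library total, 2067 transcripts rose and 2092 fell. Quantile normalization, which gives all libraries 1 common distribution of values, led to 1941 rises and 2132 falls.

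Among the called transcripts with the largest fold rises were both Prok2 transcripts, S100a4, G6pc, Slc2a4, Il17rb, Kcnab3, a Gnas isoform and Fabp3. Those with the largest falls were Mir23b, Ins2, Mir219-1, Ucn3, Dleu7, Lyzl1, P2ry1, Mt2A, Col27a1 and Car8. Dleu7, a transcript named after a deletion in lymphocytic leukaemia, ranged from 3.10 to 8.33 FPKM in NG (median 5.86) and from 0.981 to 3.55 FPKM in HG (median 1.67), with a log2 fold change of -1.28 (adjusted p = 1.1e-15, SE 0.09). Lyzl1, a lysozyme-like gene, ranged from 2.27 to 6.35 FPKM in NG (median 4.71) and from 0.691 to 2.23 FPKM in HG (median 1.22), and its groups did not overlap. Car8, a carbonic anhydrase relative that binds the inositol trisphosphate receptor, fell from 73.7 ± 23.2 to 35.4 ± 7.35 FPKM. The Mir23b and Mir219-1 entries are precursors of 97 and 110 bases, for which FPKM is unreliable, and their values are not interpreted. Crabp1, which binds retinoic acid in the cytosol, had the smallest adjusted p of all transcripts and was picked after its values were seen. It ranged from 63.1 to 90.8 FPKM in NG (median 78.6) and from 161 to 219 FPKM in HG (median 185), with no overlap and a log2 fold change of 1.25 (adjusted p = 3.5e-26, SE 0.04).

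Transcripts of glycolysis rose more often than they fell. Of 30 tested transcripts, 16 rose (53.3%) and 3 fell (10.0%), with a median log2 fold change of 0.13. Pklr, the pyruvate kinase of liver and red cells and a target of ChREBP, ranged from 51.8 to 75.3 FPKM in NG (median 59.2) and from 80.0 to 103 FPKM in HG (median 89.0), without overlap, and its log2 fold change was 0.56 (adjusted p = 6.1e-15, SE 0.04). The pyruvate kinase of most tissues, Pkm, rose by 0.24. Aldoa, the ubiquitous aldolase, had a mean of 789 FPKM in NG and 853 FPKM in HG for its main transcript, which did not pass (0.13). Of 3 Aldoa transcripts 1 rose (0.29), and Aldoc rose by 0.22.

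The abundant enzymes of the lower part rose by modest folds that were large in FPKM. Eno1, the main enolase, ranged from 1144 to 1367 FPKM in NG (median 1220.5) and from 1398 to 1854 FPKM in HG (median 1626), and the groups did not overlap (adjusted p = 2.8e-14, log2 fold change 0.38 with SE 0.03). Gapdh, often used as a reference gene, rose from 3402 ± 219.5 to 4139 ± 249 FPKM, with a log2 fold change of 0.28 (adjusted p = 6.3e-11, SE 0.03). Smaller rises were seen for Gpi (0.26), Tpi1 (0.17), Pgam1 (0.12) and Minpp1 (0.08), of which Tpi1 and Pgam1 did not pass after quantile normalization. All 3 phosphofructokinase subunits rose, with log2 fold changes of 0.30 for Pfkl, 0.19 for Pfkp and 0.10 for Pfkm. The bifunctional enzymes that set fructose 2,6-bisphosphate, the activator of phosphofructokinase, moved in different directions. Pfkfb3, the isoform with the highest ratio of kinase to phosphatase activity, ranged from 28.2 to 58.4 FPKM in NG (median 48.1) and from 45.5 to 88.1 FPKM in HG (median 70.7), with overlapping groups and a log2 fold change of 0.64 (adjusted p = 1.1e-07, SE 0.09), and Pfkfb4 rose by 0.38. Of 3 Pfkfb2 transcripts, 2 fell (log2 fold change -0.43 for the most abundant). Tigar (in the table as LOC502894), a phosphatase that removes fructose 2,6-bisphosphate, fell from 31.0 ± 4.63 to 21.0 ± 2.59 FPKM, with a log2 fold change of -0.53 (adjusted p = 8.6e-10, SE 0.06). Transcripts that did not pass were Pgk1 (-0.03), Ldhb (0.11), Bpgm (-0.09), Adpgk (-0.06), Eno2 (-0.07), Eno3, Pgam2 and second transcripts of Aldoa, Eno1 and Pfkfb2, with log2 fold changes of -0.19 to 0.31 over all 11 of them.

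Before glycolysis, at glucose entry, 2 of 14 tested transcripts rose (14.3%) and 5 fell (35.7%), against 17.7% and 21.8% of all tested. The list is small. The rises were Slc2a4, the insulin-regulated transporter GLUT4, and G6pc, which removes phosphate from glucose 6-phosphate in the ER. GLUT4 was at a lower level, with mean 1.99 FPKM in NG and 8.44 FPKM in HG, and Slc2a2, the GLUT2 transporter of the rodent β-cell, fell from 484 ± 58.3 to 432 ± 48.5 FPKM (adjusted p = 0.0082, log2 fold change -0.16 with SE 0.05). The carrier that brings glucose 6-phosphate to G6pc, Slc37a4, moved against it and fell from 40.6 ± 1.90 to 32.9 ± 1.65 FPKM (adjusted p = 3.1e-14, log2 fold change -0.30 with SE 0.02). Falls were also seen for Slc37a1 (-0.26), the fructose transporter Slc2a5 (-0.44) and the inositol transporter Slc2a13 (-0.20). Slc2a5 and Slc2a13 were low, at means of 1.41 and 1.32 FPKM in NG. Those that did not pass included Slc2a1 (0.03), Slc2a6 (-0.07), Slc2a8 (-0.06), Slc2a9 (0.02) and G6pc3 (-0.03).

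In the pentose phosphate pathway, 3 of 13 rose (23.1%) and 2 fell (15.4%), in a small list. Both enzymes of the reversible branch that move carbon units between sugars were among the rises. Tkt, transketolase, rose from 149 ± 8.26 to 238 ± 15.2 FPKM without overlap of the groups, and Taldo1, transaldolase, by 0.21. Prps1 (-0.15), which uses the ribose 5-phosphate that the pathway makes, and Shpk (-0.22) fell. The other members, Prps2, H6pd, Rpia, Rbks, Rpe, Prpsap1, Prpsap2 and Pgls, did not pass and lay between -0.11 and 0.08. Of 18 transcripts of fructose, polyol and hexosamine routes 3 rose (16.7%) and 5 fell (27.8%), against 17.7% and 21.8% of all tested. The falls included the fructose and sorbitol enzymes, with log2 fold changes of -0.38 for ketohexokinase (Khk), -0.24 for Sord and -0.11 for the aldose reductase Akr1b1. In the hexosamine branch Gfpt1, its first enzyme, rose by 0.08, whereas Amdhd2 (-0.26) and Gne (-0.12) fell and the sialic acid enzymes Nans (0.16) and Cmas (0.10) rose.

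Of 23 transcripts for glycogen and gluconeogenesis, 8 rose and 3 fell. The clearest rises were in the subunits that bring protein phosphatase 1 to glycogen and so favour its synthesis. Ppp1r3c ranged from 0.339 to 1.63 FPKM in NG (median 1.08) and from 1.03 to 4.77 FPKM in HG (median 3.74), with a log2 fold change of 1.11 (adjusted p = 4.4e-12, SE 0.10), and Ppp1r3b rose by 0.65. Pgm2l1 (0.35) and the phosphorylases Pygb (0.30) and Pygl (0.21), which release glucose 1-phosphate, rose as well. Phkg1 (-0.23) and Fbp2 (-0.22) fell, the latter not past the threshold after quantile normalization.

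**Figure D2:**
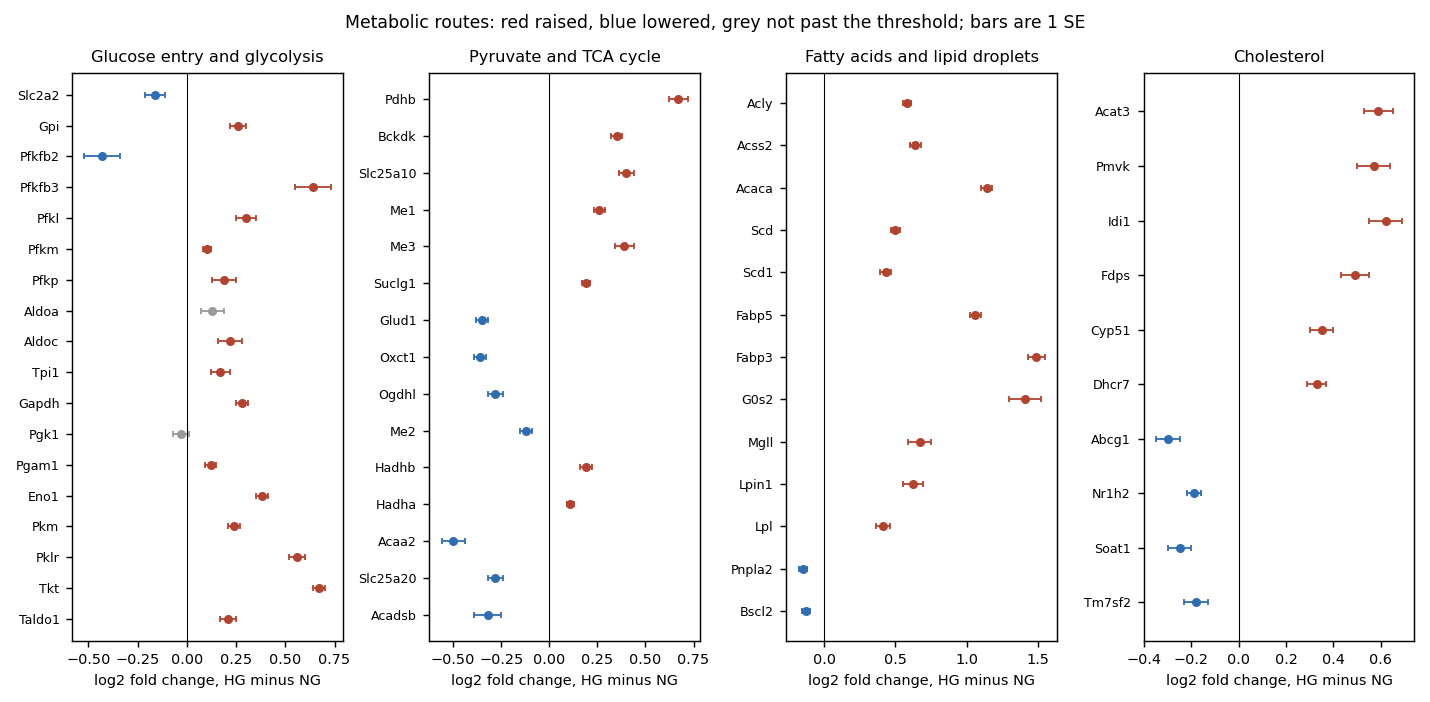
Log2 fold changes (HG against NG, points, with the standard error from limma as bars) of individual transcripts in 4 metabolic groups, with a vertical line at 0 for no change. Tkt at 0.67 lies to the right in the glycolysis panel and Acaa2 at -0.50 to the left in the panel beside it.

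Targets of ChREBP and other glucose-responsive genes were the list with the highest share of rises among the metabolic ones. Of 31 transcripts 23 rose (74.2%, against 17.7% of all tested) and 3 fell, and the median log2 fold change was 0.35. This list holds genes known for their response to glucose, so its direction is not independent of how it was drawn up. Acaca, acetyl-CoA carboxylase, which commits carbon to fatty acids, ranged from 13.2 to 19.3 FPKM in NG (median 16.7) and from 32.1 to 46.4 FPKM in HG (median 37.6). Its groups were far apart, and the log2 fold change was 1.14 (adjusted p = 1.9e-24, SE 0.04). Txnip, an arrestin-like protein that binds thioredoxin and lowers glucose uptake, ranged from 79.2 to 181 FPKM in NG (median 100.3) and from 201 to 306 FPKM in HG (median 249) without overlap, with a log2 fold change of 1.20 (adjusted p = 4.9e-14, SE 0.09). Acly, which makes cytosolic acetyl-CoA from citrate, rose by 0.58 and 0.56 in its 2 transcripts. Scd1 (0.43) and the transcript listed as Scd (0.50, now Scd2), desaturases of fatty acids, rose as well. Mlx, the DNA-binding partner of ChREBP, fell (-0.24), as did Khk and the clock repressor Nr1d1 (-0.39).

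ChREBP binds a carbohydrate response element, a pair of E-boxes with 5 bases between them. No promoter of a tested transcript (250 bases before to 50 after the start, 8221 RefSeq promoters of build GRCr8, both strands) held CACGTG at both places. The looser form, CANGTG at both places, was in 3 of 1517 promoters of raised transcripts (0.198%), in 0 of 1817 of lowered ones, in 9 of 8221 of all tested (0.109%) and in 41 of all 33469 promoters (0.123%). A single gene of the ChREBP list had it, Bhlhe40, a repressor of the clock, whose mean was 79.8 ± 28.7 FPKM in NG and 135 ± 33.7 FPKM in HG and whose log2 fold change was 0.79 (adjusted p = 8.7e-05, SE 0.16). Its window, at chr4:143174225-143174251 (GRCr8, plus strand), is shown because it is the single match in that list, with the fixed letters of the motif in capitals.
Bhlhe40: tccaaCAcGTGagactCAtGTGatgaa
A match of letters is a description and not evidence of binding, and elements outside this window were not searched.

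**Figure D3:**
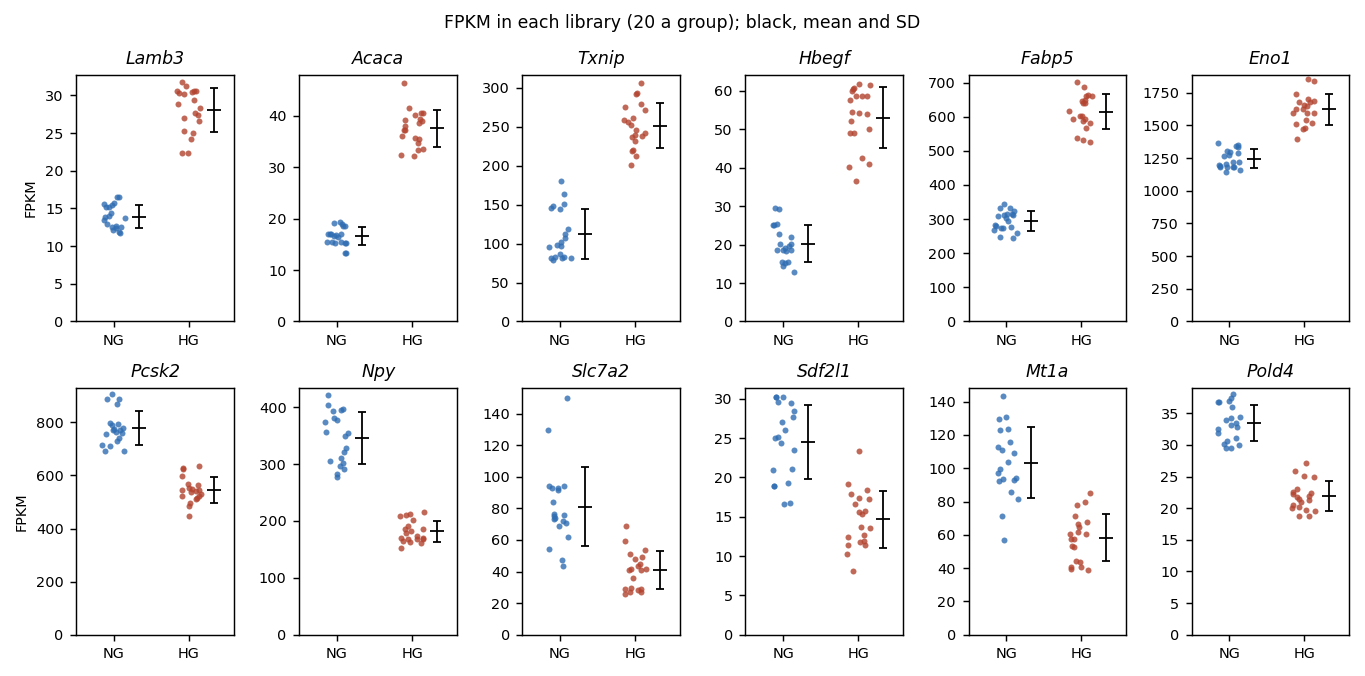
FPKM of 12 transcripts in each of the 20 NG and 20 HG libraries (points, linear y axis from 0), with the group mean and SD in black. Lamb3, Acaca, Txnip, Hbegf, Fabp5, Eno1, Pcsk2, Npy and Pold4 show no overlap between groups, whereas Slc7a2, Sdf2l1 and Mt1a overlap.

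Beyond Acaca, the enzymes that build and store fatty acids rose as a group, with 16 of 31 raised (51.6%) and 4 lowered. Acss2, which activates acetate, rose from 12.5 ± 1.24 to 20.1 ± 1.89 FPKM with a log2 fold change of 0.64 (adjusted p = 2.1e-17, SE 0.04). Fasn, fatty acid synthase itself, rose less (0.29), and Hsd17b12, which extends long chains, rose by 0.36. Falls were small and included Slc27a1 (-0.12) and Fads3 (-0.12), both without a call after quantile normalization. Among 26 transcripts of triglyceride and lipid droplet proteins, 8 rose and 3 fell. Fabp5, a carrier of fatty acids in the cytosol, ranged from 245 to 345 FPKM in NG (median 298) and from 525 to 701 FPKM in HG (median 609.8), a rise of 319 FPKM on average and without overlap (adjusted p = 3.1e-24, log2 fold change 1.06 with SE 0.04). Fabp3, its relative of heart and muscle, rose by 1.49 from a lower level (mean 30.5 FPKM in NG and 87.5 FPKM in HG). G0s2, the inhibitor of triglyceride lipase, rose by 1.41, and the lipase itself, Pnpla2, fell (-0.15). Mgll, which cleaves monoglycerides, rose by 0.67 and the phosphatase Lpin1 by 0.62.

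Cholesterol genes rose with a similar breadth. Of 33 transcripts 20 rose (60.6%) and 4 fell, with a median of 0.18. Rises were found from the first step to the last of the synthesis, with log2 fold changes of 0.59 for Acat3 (now Acat2, the cytosolic thiolase), 0.57 for Pmvk, 0.62 for Idi1, 0.49 for Fdps and 0.33 for Dhcr7. Idi1 ranged from 17.0 to 38.5 FPKM in NG (median 22.1) and from 27.0 to 46.9 FPKM in HG (median 35.3), and its groups overlapped. The 4 falls were Abcg1 (-0.30), which exports cholesterol, Soat1 (-0.25), which esterifies it, Nr1h2 (-0.19), the sterol receptor LXRβ, and Tm7sf2 (-0.18), a sterol reductase of the synthesis itself. Among 38 transcripts of phospholipid and sphingolipid enzymes 8 rose (21.1%) and 12 fell (31.6%). Pcyt1b, for choline phospholipids, rose by 0.53, whereas Lpcat3 (-0.28), which places polyunsaturated chains, and the ceramidase Asah1 (-0.18) fell.

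Mitochondrial genes did not move as 1 block. At pyruvate entry Pdhb, the β subunit of the E1 enzyme of pyruvate dehydrogenase, ranged from 46.4 to 80.7 FPKM in NG (median 52.9) and from 75.7 to 115 FPKM in HG (median 88.1), with little overlap and a log2 fold change of 0.67 (adjusted p = 5.5e-15, SE 0.05), whereas the α subunit Pdha1, its partner in the same complex, rose by 0.17. The kinase Pdk1, which inactivates the complex, rose by 0.29. Over the whole list of pyruvate entry, TCA cycle and shuttles 20 of 55 rose and 9 fell. Rises included the malic enzymes Me1 (0.26) and Me3 (0.39), the dicarboxylate carrier Slc25a10 (0.40) and the kinase Bckdk (0.35). Falls were found in the entry of glutamate and ketones. Glud1, glutamate dehydrogenase, fell from 100.3 ± 6.32 to 78.7 ± 3.60 FPKM (adjusted p = 5.8e-15, log2 fold change -0.35 with SE 0.03), and Oxct1 (-0.36) fell as well. Glud1 was also among the falls with the smallest adjusted p of all changes under 0.5 in size.

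In the respiratory chain and ATP synthase 28 of 78 transcripts rose (35.9%) and 4 fell, with log2 fold changes of 0.08 to 0.17 for the raised ones. Atp5b (0.15) and Atp5c1 (0.13) of ATP synthase had the smallest adjusted p. This balance depended on scaling, since after quantile normalization 20 rose, 12 fell and Atp5b did not pass, and 28.5% of all transcripts in the highest bin by level were raised. Fatty acid oxidation went the other way, with 5 of 30 raised and 11 lowered (36.7%). Acaa2, the last enzyme of each cycle, fell (-0.50), the carnitine carrier Slc25a20 (-0.28) and Acadsb (-0.32), while the subunits of the trifunctional protein, Hadha (0.11) and Hadhb (0.19), rose. All 3 tested transcripts of Mff, the receptor for the fission enzyme on the mitochondrial surface, rose, with log2 fold changes of 0.72, 0.47 and 0.36. The polymerase accessory subunit Polg2 (-0.29) and the RNA polymerase Polrmt (-0.19) fell.

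The transcripts of cytosolic ribosomal proteins moved in 1 direction in the FPKM as deposited, with 60 of 83 raised (72.3%) and 0 lowered, but after quantile normalization 22 rose and 13 fell. The median log2 fold change of the list was 0.12 as deposited, 0.13 with median-ratio scaling (64 raised, 0 lowered) and 0.02 after quantile normalization. These transcripts are short and abundant, many have near-identical copies in the genome, and in the highest bin by level 28.5% of all transcripts were raised. Rps18 had the smallest adjusted p and rose from 2693 ± 221 to 3246 ± 285 FPKM, followed by Rpl3 (0.22) and Rps19 (0.23). Rps27a and Rpl39 were among the 10 largest called rises in FPKM, at 288 and 409 FPKM.

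Translation factors had 20 raised of 67 and 4 lowered. Elongation factors rose together, with log2 fold changes of 0.28 for Eef1a1, 0.26 for Eef2 and 0.20 for Eef1a2, and the kinase that inhibits Eef2, Eef2k, moved in the opposite direction. Eef2k ranged from 29.6 to 39.9 FPKM in NG (median 35.9) and from 21.3 to 29.2 FPKM in HG (median 25.9), without overlap, and its log2 fold change was -0.45 (adjusted p = 5.4e-13, SE 0.04). Eif4e2, a second cap-binding protein, rose by 0.44. In contrast to the ribosomal proteins themselves, genes that assemble ribosomes and transcribe their RNA had 4 raised and 18 lowered of 86, both near background or under it. The abundant nucleolar proteins Ncl (0.24) and Npm1 (0.25) rose, whereas Ltv1 (-0.37), Wdr75 (-0.19) and Mphosph10 (-0.19) fell.

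Genes of amino acid synthesis and of the ATF4 response rose in 16 of 39 cases (41.0%) and fell in 2. Asns, asparagine synthetase, ranged from 115 to 159.5 FPKM in NG (median 139.8) and from 158 to 214 FPKM in HG (median 196), with a log2 fold change of 0.48 (adjusted p = 3.9e-14, SE 0.04). The proline enzyme Aldh18a1 (0.30), the transporter Slc7a5 (0.37), the folate enzyme Aldh1l2 (0.49) and Gadd45a (0.37) rose, whereas the serine hydroxymethyltransferases Shmt1 (-0.17) and Shmt2 (-0.13) fell. Of 25 tRNA synthetases, 9 rose and 3 fell, led by the mitochondrial Fars2 (adjusted p = 1.3e-15, log2 fold change 0.65 with SE 0.05), which did not overlap between groups, and by Tars (0.23). Wars, for tryptophan, fell (-0.26). Amino acid and monocarboxylate transporters went both ways (11 up, 15 down of 42). The glutamine carrier Slc38a3 rose by 0.74, and a transcript of the arginine carrier Slc7a2 ranged from 43.2 to 150.1 FPKM in NG (median 75.8) and from 25.8 to 68.8 FPKM in HG (median 41.2), a log2 fold change of -0.97 (adjusted p = 8.8e-08, SE 0.13), while its second transcript was at 0.01 and did not pass. Slc16a12 (-0.84), Slc16a10 (-0.61) and Slc3a1 (-0.52) fell.

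Genes of the cell cycle rose, by small amounts and across many members. Of 63 transcripts for DNA replication and nucleotide supply, 28 rose (44.4%) and 2 fell, and of 71 for mitosis, 31 rose (43.7%) and 1 fell. The medians were 0.09 and 0.09. Mcm10, which starts the helicase at origins, ranged from 8.02 to 10.4 FPKM in NG (median 8.89) and from 10.7 to 13.8 FPKM in HG (median 11.5), without overlap and with a log2 fold change of 0.35 (adjusted p = 1.4e-11, SE 0.03). Cdc7, the kinase that fires origins, rose by 0.49, Pola1, the polymerase that starts each strand, by 0.28, Mcm5 by 0.20 and Lig1 by 0.17. Pold4, the smallest subunit of polymerase δ, which is known from human cells to be degraded after DNA damage, stood against this group. It ranged from 29.5 to 38.1 FPKM in NG (median 33.3) and from 18.7 to 27.1 FPKM in HG (median 21.7), with no overlap, and its log2 fold change was -0.59 (adjusted p = 5.6e-16, SE 0.04). In mitosis the motors Kif11 (0.17), Kif20a (0.17) and Kif2c (0.17), the survivin gene Birc5 (0.19) and the phosphatase Cdc25b (0.17) rose within a narrow band. The single fall was Fam64a (-0.21, now Pimreg).

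Upstream, 14 of 38 transcripts of G1 regulators rose and 5 fell. Ccnd2, the main D cyclin of rodent islets, ranged from 155 to 201 FPKM in NG (median 176) and from 196 to 257 FPKM in HG (median 235), with a log2 fold change of 0.40 (adjusted p = 3.4e-14, SE 0.03). Mycn, a MYC relative, rose from 2.91 ± 0.695 to 6.48 ± 1.34 FPKM (0.93), Mxd3, which pairs with Max, by 0.99, and E2f1 by 0.21, together with Tfdp1 (listed as MGC112830, 0.21), the partner with which E2F factors bind DNA. Ccnd3 (-0.19), Cdkn2c (-0.20), Rbl1 (-0.15), Max (-0.14) and Mycl1 (-0.24) fell.

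E2F factors bind promoters of replication genes. The letters TTTGGCGC (both strands) were in the promoters of 10 of 50 replication genes with a RefSeq promoter, in 1 of 52 for mitosis, in 23 of 1517 raised genes (1.52%), in 6 of 1817 lowered ones (0.33%), in 74 of 8221 tested ones (0.90%) and in 165 of all 33469 (0.493%). Of the 10 replication genes, 6 rose and 4 did not pass. A second form, TTTCCCGC, was in 9 of the 50 replication promoters and in 2.31% of the raised, 1.27% of the lowered, 2.17% of the tested and 0.974% of all promoters, so its share among raised genes was close to that among tested ones. Of these 9 genes, 3 rose and 6 did not pass. Windows of 18 bases are shown for 4 raised replication genes, with the letters of the motif in capitals, to let the shared site be compared. Gins1, Mcm6 and Tyms were picked for their match after values were seen, and their log2 fold changes were 0.33, 0.12 and 0.13. The windows lie at chr3:160184890-160184907 (plus strand), chr13:42404479-42404496 (minus), chr9:120776108-120776125 (minus) and chrX:62342515-62342532 (minus) of GRCr8, in the order given, and the last holds the motif on the opposite strand.
Gins1: gcctaTTTGGCGCcaaag
Mcm6: ctgctTTTGGCGCgaaat
Tyms: cgggtTTTGGCGCcgact
Pola1: acaggGCGCCAAAtgcag
The same 8 letters recur in each with different neighbours, and no binding was measured here.

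Histone transcripts, whose replication-dependent forms carry no poly(A) tail in dividing cells and are poorly captured by poly(A) selection, did not follow the replication genes. Of 26 transcripts 3 rose and 14 fell (53.8%), with a median of -0.18. Hist1h2bh ranged from 38.7 to 52.8 FPKM in NG (median 43.6) and from 26.2 to 40.6 FPKM in HG (median 32.1), with a log2 fold change of -0.41 (adjusted p = 4.6e-11, SE 0.04), and Hist3h2a (-0.53), Hist1h2bo (-0.46) and Hist2h2ab (-0.56) fell. The rises were the macroH2A variants H2afy (0.12) and H2afy2 (0.18) and Hist1h2af (0.25). Several of these genes are near-identical, so reads may be divided between them arbitrarily, and 9 rather than 14 fell when a mean of at least 5 FPKM was required. DNA repair genes (14 up, 10 down of 64, 21.9% and 15.6%) differed little from the background, with Chek1 (0.18) and Rad18 (0.28) raised and Xrcc6 (-0.17) and Parp1 (-0.12) lowered. Of 33 p53 targets, 9 rose (27.3%, against 17.7% of all tested) and 6 fell (18.2%, against 21.8%), with a median of 0.001. Among the rises were Sesn1 (0.36), Plk2 (0.47), Btg1 (0.42) and the cell cycle inhibitor Cdkn1a (0.35). Gdf15 (-0.56) and Gadd45b (-0.38) were among the falls.

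Transcripts for protein folding in the early secretory pathway fell more often than they rose, mostly by small amounts. Of 50 transcripts of ER chaperones and the unfolded protein response, 4 rose and 21 fell (42.0%, against 21.8% of all tested). The median was -0.07, and 19 of the 21 falls were under 0.3 in size. The summed level of the list was at a mean of 5536 FPKM in NG and 5391 FPKM in HG. Sdf2l1, a partner of the chaperone Hspa5, ranged from 16.6 to 30.3 FPKM in NG (median 25.1) and from 8.17 to 23.3 FPKM in HG (median 14.5), and the groups overlapped, with a log2 fold change of -0.71 (adjusted p = 8.1e-08, SE 0.10). Hspa5 itself, the main chaperone of the ER, fell from 584 ± 47.9 to 521 ± 37.6 FPKM (-0.16). Ero1lb (now Ero1b), the oxidase that forms disulfides in proinsulin, fell (-0.56), Vimp (now Selenos) (-0.22) and Atf6b (-0.17). The 4 rises were P4hb, the archetypal disulfide isomerase (0.29), Prdx4 (0.30), Txndc12 (0.26) and Eif2ak3, the ER stress kinase PERK (0.21).

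Many ER chaperone genes carry the ER stress element, a CCAAT box separated by 9 bases from CCACG. In the promoters searched, CCAAT followed by CCACG at that distance (both strands) was found in 9 of 40 genes of this list, in 7 of 1817 lowered genes (0.385%), in 1 of 1517 raised ones (0.0659%), in 15 of 8221 tested ones (0.182%) and in 22 of all 33469 (0.0657%). Of the 9 genes, 6 fell and 3 (Canx, Hsp90b1 and Xbp1, named after their values were seen) did not pass. The windows of 6 lowered genes are shown with both boxes of the element in capitals, because the boxes and their spacing recur while the bases between them differ. Calr, Creld2, Derl3 and Dnajc3 were added for their match after values were seen, and their log2 fold changes were -0.14, -0.19, -0.29 and -0.13.
Hspa5: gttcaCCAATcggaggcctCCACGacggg
Dnajc3: caaagCCAATcagcgccaaCCACGaccca
Calr: caacgCGTGGtcgaccctgATTGGcccag
Creld2: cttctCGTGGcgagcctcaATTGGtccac
Derl3: tctacCGTGGgacttccttATTGGctagc
Ero1b: gccctCGTGGtcccgcctcATTGGccgcc
In GRCr8 they lie at chr3:38452968-38452996, chr15:102432529-102432557, chr19:40213130-40213158, chr7:121789234-121789262, chr20:12766596-12766624 and chr17:92941453-92941481, on the minus strand for Derl3 and on the plus strand for the other 5. The last 4 hold the element on the strand opposite to the gene.

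Translocation and N-glycosylation had 9 rises (17.0%) and 15 falls (28.3%) of 53, against 17.7% and 21.8% of all tested. Srp14 (0.25) and Rpn2 (0.14) rose, while the signal peptidase subunit Spcs3 (-0.27), Alg11 (-0.20) and Dpm1 (-0.19) fell. Coats of ER to Golgi vesicles rose in 16 of 58 cases (27.6%) and fell in 8, with Lman2 (0.20) and the retrieval receptor Kdelr3 (0.31) raised, although quantile normalization left 10 rises. Further on, Golgi glycosyltransferases went both ways, with 25 raised and 29 lowered of 91. St6gal1, which caps N-glycans with sialic acid, ranged from 2.68 to 11.1 FPKM in NG (median 5.30) and from 7.09 to 25.4 FPKM in HG (median 15.2), with overlap and a log2 fold change of 1.38 (adjusted p = 1.3e-10, SE 0.14). Chst8, which sulphates hormone glycans, ranged from 2.05 to 4.96 FPKM in NG (median 2.93) and from 6.45 to 10.1 FPKM in HG (median 7.44), without overlap (adjusted p = 5.9e-17, log2 fold change 1.09 with SE 0.07), and C1galt1, which extends O-glycans, rose by 0.73 while its chaperone C1galt1c1 fell (-0.28). The clearest falls were B4galnt4 (-0.47), Galnt18 (-0.42), Man1c1 (-0.49), Mgat1 (-0.26) and Hs3st6 (-0.62).

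Lysosomal and proton pump transcripts fell in 25 of 56 cases (44.6%) and rose in 9. Hexa, a subunit of hexosaminidase, ranged from 85.2 to 106 FPKM in NG (median 94.3) and from 75.3 to 89.9 FPKM in HG (median 81.6), with a log2 fold change of -0.22 (adjusted p = 2.4e-10, SE 0.02). Ctsa (-0.29), the membrane protein Lamp1 (-0.19) and the pump subunit Atp6v1h (-0.21) fell, whereas Ctsb, cathepsin B, rose by 0.15 and Npc1 by 0.18. Autophagy genes fell in 12 of 44 cases (27.3%, near the 21.8% of all tested) and rose in 1 (2.27%, against 17.7%). The median of this list was -0.04. Bnip3, which marks mitochondria for autophagy, fell from 152 ± 17.2 to 119 ± 13.4 FPKM (-0.34), and Tecpr1 (-0.18), Nbr1 (-0.18), Gabarapl2 (-0.16) and Wipi1 (-0.25) fell by less. The single rise was Ulk1 (0.24), the kinase that starts autophagy.

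In the list of insulin and granule proteins, 16 of 31 transcripts fell (51.6%) and 6 rose, with a median of -0.15. The list is wider than its name. It also counts several transcripts each of the G protein gene Gnas and of neuronatin (Nnat), and the ER oxidase Ero1lb, and called transcripts of all these genes are in the share. Ins1 fell from 69154 ± 10457 to 50971 ± 9483 FPKM and Ins2 from 15857 ± 3528 to 4582 ± 1415 FPKM, with log2 fold changes of -0.45 and -1.82. The coding parts of these genes are alike, so reads may be shared between them. Quantile normalization, which by construction sets the most abundant transcript to the same value in each library, ended the call of Ins1 and turned Iapp, the amyloid peptide, from -0.38 to 0.17, while median-ratio scaling kept both calls. The convertases differed. Pcsk2, which cuts proinsulin on the A chain side, ranged from 691 to 907 FPKM in NG (median 772) and from 447 to 634 FPKM in HG (median 543), without overlap (adjusted p = 3.8e-15, log2 fold change -0.51 with SE 0.04), whereas Pcsk1 did not pass (-0.19). Scg5, the chaperone that brings the Pcsk2 protein to its active form, moved in the opposite direction to its client, from 377 to 596 FPKM in NG (median 464) and from 577 to 769 FPKM in HG (median 671), with a log2 fold change of 0.52 (adjusted p = 8.7e-16, SE 0.04). Granins divided as well, with Chgb (0.21) and Chga (0.10, but -0.03 after quantile normalization) raised and Scg2 (-0.52) and Vgf (-0.15) lowered. The mean of Chgb rose by 945 FPKM, more than that of any other called transcript.

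The amidating enzyme Pam rose by 0.25. Falls were seen for Iapp, the zinc transporter Slc30a8 (-0.36), the docking proteins Rab3a (-0.28), Rab27a (-0.52) and Sytl4 (-0.16), 2 transcripts of Nnat (neuronatin, -0.26 for the most abundant) and Nucb2 (-0.18). Slc30a8 had the smallest adjusted p among falls of less than 0.5 in size, with a mean of 838 ± 37.7 FPKM in NG and 654 ± 33.1 FPKM in HG. Of the 4 Gnas transcripts, 2 rose and 2 fell. The remaining members Cpe, Ptprn, Ptprn2, Pcsk1n, Slc18a1, Scg3 and further Nnat transcripts did not pass, with log2 fold changes between -0.19 and 0.05 together with Pcsk1.

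β-cell transcription factors fell in 10 of 26 cases (38.5%) and rose in 2. Pdx1, the central activator of the insulin gene, ranged from 102 to 159 FPKM in NG (median 124) and from 78.9 to 125 FPKM in HG (median 99.4), with overlap and a log2 fold change of -0.33 (adjusted p = 3.5e-07, SE 0.05). Hlxb9 (now Mnx1, -0.39), Rfx6 (-0.40), Neurod1 (-0.24), Esrrg (-0.26), Isl1 (-0.21), Foxo1 (-0.23), Rfx3 (-0.25), Nkx2-2 (-0.18) and Myt1 (-0.16) fell, of which Myt1 was at the limit and lost its call under 4 alternatives. Gata4, a factor of the early pancreas and of gut and heart, rose from 15.2 ± 1.57 to 22.4 ± 2.84 FPKM (adjusted p = 5.1e-12, log2 fold change 0.53 with SE 0.05). The members that did not pass included Foxa1 (0.07), Foxa2 (-0.09), Foxa3 (0.08), Pax6 (-0.15), Nkx6-1 (0.06), Gata6 (0.10), St18 (-0.07), Prox1 (-0.08), Bhlha15 (-0.15), Tcf7l2 (-0.01) and 3 transcripts of Hnf4a, between -0.32 and 0.10.

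The release machinery was divided. Of 41 transcripts, 10 rose (24.4%) and 9 fell (22.0%, near the 21.8% of all tested). Rims3 (0.40), Sytl5 (0.51), the SNARE protein Snap25 (0.32), Syt11 (0.17) and the complexin Cplx1 (0.13) rose. Falls were found for Rph3al, also called noc2, a Rab effector of granules (-0.36), Erc2 (-0.49), the complexin Cplx2 (-0.28), Syt13 (-0.50) and both transcripts of Pclo (piccolo, -0.51 and -0.48). Ion channels fell in 18 of 53 cases (34.0%) and rose in 6. The subunits of the potassium channel that glucose closes fell by small amounts, Kcnj11 from 117 ± 14.8 to 93.7 ± 11.0 FPKM (-0.31) and Abcc8 from 80.4 ± 5.82 to 70.8 ± 4.09 FPKM (-0.18), and both were named after their values were seen. Calcium channel subunits fell by more in relative terms, with the T-type channel Cacna1g ranging from 5.94 to 8.94 FPKM in NG (median 7.41) and from 3.88 to 6.48 FPKM in HG (median 5.06) (adjusted p = 2.8e-12, log2 fold change -0.50 with SE 0.05) and falls of Cacnb1 (-0.51) and Cacnb2 (-0.34), whereas Cacnb3 (0.16) and Cacna1a (0.14) rose. Of potassium channels, Kcnh6 (-0.38) and Kcnh2 (-0.19) fell.

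Among 39 receptors of islet function 5 rose and 15 fell (38.5%). Glp1r, the receptor for the incretin GLP-1, ranged from 76.7 to 117 FPKM in NG (median 95.8) and from 63.9 to 88.7 FPKM in HG (median 73.8), with a log2 fold change of -0.37 (adjusted p = 3.0e-09, SE 0.04). The prolactin receptor Prlr (-0.48), the dopamine receptor Drd2 (-0.51), Gprc5b (-0.33) and the purine receptor P2ry1 (-1.16) also fell. Rises were led by Adora2b, an adenosine receptor, from 3.94 to 9.22 FPKM in NG (median 5.67) and from 7.10 to 19.7 FPKM in HG (median 13.0) (adjusted p = 1.7e-12, log2 fold change 1.05 with SE 0.09), the calcium-sensing receptor Casr (0.65), the glucagon receptor Gcgr (0.53), Gabbr2 (0.18) and Galr1 (0.18). Downstream, in 48 transcripts of cyclic AMP signalling, 10 rose (20.8%) and 12 fell (25.0%), both near the background. Phosphodiesterases, which degrade cyclic AMP, went both ways, with Pde4b (0.60), Pde7b (0.52) and Pde10a (0.50) raised and Pde3b (-0.40) lowered. The cyclase Adcy8 fell (-0.52), and the kinase regulatory subunit Prkar2b rose by 0.41.

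Peptides other than insulin moved in both directions. Npy, neuropeptide Y, ranged from 277 to 421 FPKM in NG (median 352) and from 153 to 216 FPKM in HG (median 176), without overlap, and its log2 fold change was -0.92 (adjusted p = 8.4e-19, SE 0.05). Cck, cholecystokinin, ranged from 17.5 to 32.1 FPKM in NG (median 25.9) and from 25.8 to 55.3 FPKM in HG (median 36.2), with a log2 fold change of 0.57 (adjusted p = 2.7e-07, SE 0.08), whereas its relative gastrin (Gast) fell (-0.76) and secretin (Sct) (-0.38). Adm, adrenomedullin, rose by 1.13, Prok2 by 2.75 and Ucn3 fell (-1.63).

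**Figure D4:**
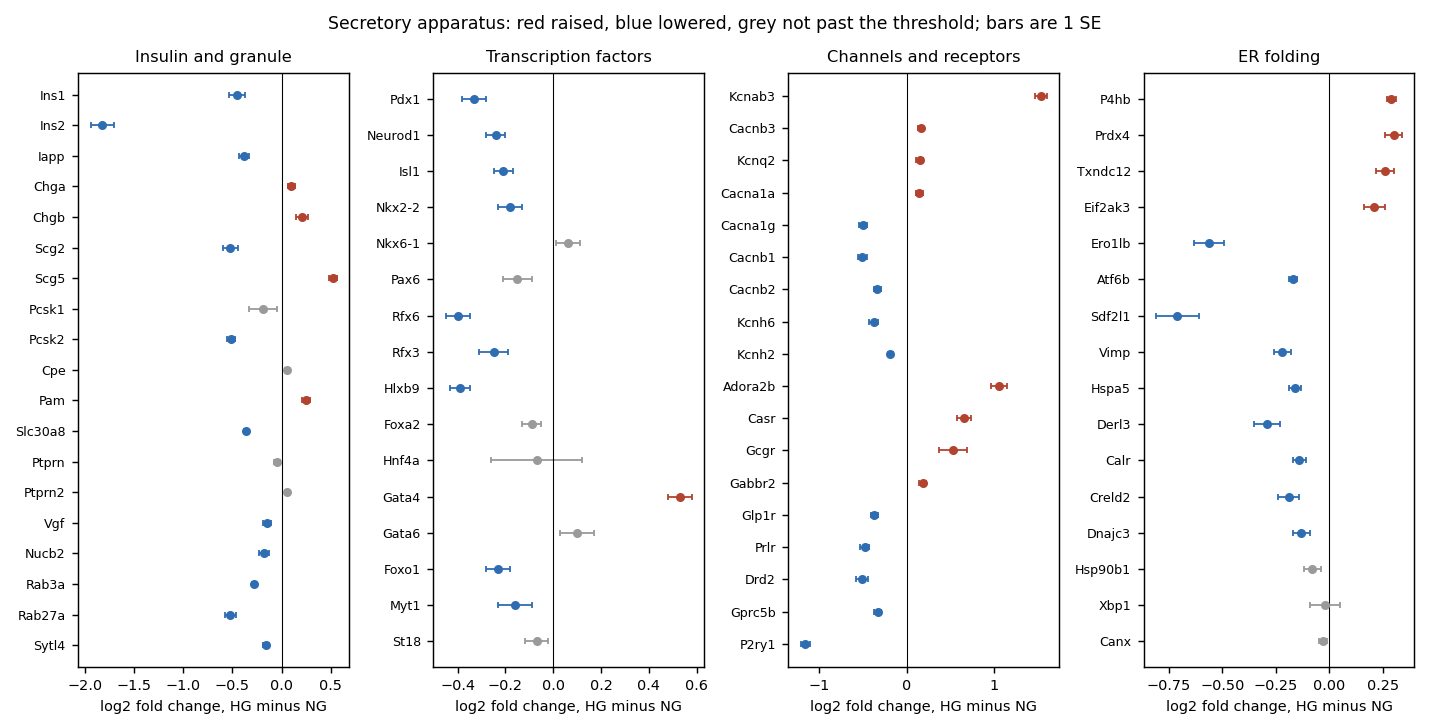
Log2 fold changes (HG against NG, points, with the standard error from limma as bars) of individual transcripts in 4 groups of the secretory pathway, with a vertical line at 0 for no change. Falls outnumber rises among the called members of the granule, transcription factor and ER folding panels, while single members such as Scg5 at 0.52 and Gata4 at 0.53 lie to the right.

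Redox genes rose in part. Glutathione metabolism had 15 of 32 raised (46.9%) and 3 lowered. Besides Gstm5 (1.08), the glutathione transferases Gstm1 (0.81), Gstm4 (0.36) and Gstm7 (0.30) rose, near-identical genes between which reads are hard to divide, and so did Gss (0.23), which completes glutathione. Gstz1 (-0.36), Hagh (-0.29) and Gstk1 (-0.22) fell. In the thioredoxin, peroxiredoxin and NRF2 list, 11 of 40 rose and 5 fell, with Prdx2 (0.27), Txn1 (0.18, not called after quantile normalization) and the ferritin chain Fth1 (0.21) raised and catalase (Cat, -0.10) lowered. Zinc genes fell, with 11 of 22 lowered (50.0%) and 3 raised. Metallothionein Mt1a (now Mt1), which binds zinc, ranged from 56.9 to 143 FPKM in NG (median 102) and from 39.1 to 85.1 FPKM in HG (median 59.0), with a log2 fold change of -0.83 (adjusted p = 1.8e-08, SE 0.10), next to Mt2A (-1.15). Importers and exporters moved in both directions. Slc39a6 (0.51) and Slc30a3 (0.58) rose, and Slc39a1 (-0.24) and Slc30a5 (-0.16) fell.

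The cytoskeleton changed along several axes. Tubulins, their chaperonin and prefoldin rose in 19 of 37 cases (51.4%), with 1 fall, Tbcd (-0.11). The microtubule-destabilising stathmins rose with the tubulins. Stmn2 ranged from 83.5 to 116 FPKM in NG (median 95.0) and from 127 to 160.1 FPKM in HG (median 140.0), without overlap (adjusted p = 9.0e-17, log2 fold change 0.54 with SE 0.04), Stmn1 rose by 0.28 and Stmn3 by 0.26. Of 73 actin and filament transcripts, 22 rose and 9 fell. Tmsb10, a thymosin that binds actin monomers, rose from 1267 ± 77.5 to 1712 ± 99.9 FPKM (adjusted p = 4.1e-17, log2 fold change 0.43 with SE 0.03), Pxn, paxillin, by 0.41 and the bundling protein Lcp1 by 0.49. Tpm2, a muscle-type tropomyosin, ranged from 0.141 to 1.95 FPKM in NG (median 0.833) and from 1.62 to 4.73 FPKM in HG (median 3.02) (adjusted p = 2.8e-12, log2 fold change 1.20 with SE 0.11). Gsn, gelsolin, which severs filaments, fell from 19.6 ± 2.13 to 13.3 ± 1.88 FPKM (-0.53), Actn1 (-0.31) and Arpc1b (-0.24).

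Motors rose in 21 of 56 cases (37.5%) and fell in 12, with Myo5a, which carries granules along actin, at 0.32, Myo1d at 0.25 and Kifap3 at 0.23, and with falls of Myo10 (-0.39) and Dync1i1 (-0.42). Centrosome and cilium genes fell in 23 of 69 cases (33.3%) and rose in 6. The falls included parts of the transport trains and the gate of the primary cilium, with Ttc8 of the BBSome at -0.37, Ift80 at -0.23, Tmem231 at -0.25, Wdr19 at -0.20 and Bbs7 at -0.25. Nucleoporins and nuclear transport had 16 of 54 raised (29.6%) and 3 lowered, the rises including the exportin Xpo6 (0.13), Nup43 (0.25), Nup54 (0.20) and Ran (0.14).

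Signalling genes of inflammation were lowered more often than raised. Of 66 transcripts of NF-κB and cytokine responses, 10 rose and 31 fell (47.0%, against 21.8% of all tested). Receptors and transducers were among the falls, with Il1r1 at -0.47, Il6st at -0.23, Stat3 at -0.18 and the peptide transporter Tap2 at -0.33. Psmb9, a subunit of the immunoproteasome, ranged from 16.6 to 34.0 FPKM in NG (median 20.6) and from 10.8 to 21.9 FPKM in HG (median 14.9) (adjusted p = 2.4e-06, log2 fold change -0.49 with SE 0.08), and its partner Psmb8 fell (-0.22). The rises were fewer but larger, led by Lgals9 (1.47), Il17rb (1.56), the chemokine Cxcl16 (0.96), Il6r (0.39) and Cd40. Cd40, a costimulatory receptor, ranged from 0.339 to 1.95 FPKM in NG (median 0.923) and from 0.955 to 5.17 FPKM in HG (median 3.19) (adjusted p = 3.0e-11, log2 fold change 1.09 with SE 0.11), low levels in both groups.

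Genes of apoptosis did not move in 1 direction, with 6 of 50 raised (12.0%) and 12 lowered (24.0%). These shares were under and near those of all tested transcripts (17.7% and 21.8%). Bmf, which binds and inhibits the survival proteins of the Bcl2 family, ranged from 0.881 to 3.24 FPKM in NG (median 1.64) and from 2.93 to 6.41 FPKM in HG (median 4.84), with little overlap and a log2 fold change of 1.10 (adjusted p = 7.7e-15, SE 0.08). Other rises were small and covered both promoters and inhibitors of death, with the pore protein Bak1 (0.22), the apoptosome scaffold Apaf1 (0.13), Bnip1 (0.15), Pdcd5 (0.09) and Birc5 (0.19). Falls were seen for the survival genes Bcl2 (-0.21) and Bcl2l2 (-0.18) and for Birc2 (-0.15). Genes that promote cell death, Casp9 (-0.15), Endog (-0.25), Dffb (-0.19) and Htra2 (-0.11), fell too. So did Bnip3, Bcap31 (-0.08), Tradd (-0.21), Tnfrsf12a (-0.18) and Aifm2 (-0.11). After quantile normalization Bcl2, Tradd, Tnfrsf12a and Aifm2 did not pass. Not past the threshold were among others the caspases Casp2 (0.08) and Casp6 (-0.15). The death-promoting Bcl2 family members Bax (-0.02), Bad (0.01), Bid (-0.09), Bbc3 (-0.11), Hrk (0.05) and Bok (-0.01) did not pass either. Nor did the survival genes Mcl1 (0.04) and Xiap (-0.03). The same held for Aifm1, Birc6, Bnip3l, Cflar, Cycs, Dffa, Diablo, Fadd, Fas, Pdcd4, Pdcd6, Ripk1, Tnfrsf1a and 3 transcripts each of Bcl2l1 and Bcl2l11. The log2 fold changes of the uncalled members lay between -0.44 and 0.24.

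Growth factors and their receptors rose in 11 of 40 cases (27.5%) and fell in 8 (20.0%). Hbegf, a ligand of the EGF receptor, ranged from 12.9 to 29.6 FPKM in NG (median 19.3) and from 36.4 to 61.8 FPKM in HG (median 54.3), without overlap (adjusted p = 6.3e-17, log2 fold change 1.36 with SE 0.08), and the receptor tyrosine kinases Kit (0.44), Kdr (0.59) and Ddr1 (0.27) and the ligand Kitlg (1.04) rose, whereas Csf1 (-0.28) and Fgfr4 (-0.29) fell. In the MAP kinase list 11 of 69 rose (15.9%) and 9 fell (13.0%), both shares under the background. The small GTPase Rras2 rose from 14.1 ± 1.53 to 23.9 ± 2.34 FPKM without overlap (limma adjusted p = 5.1e-18, log2 fold change 0.72 with SE 0.04). The feedback phosphatases Dusp4 (0.52) and Dusp26 (0.48) rose while Dusp10 (-0.39) fell. In the list of AMPK and energy sensing, 8 of 34 transcripts rose and 1 fell, the CREB coactivator Crtc2 (-0.12). Mark1 ranged from 5.61 to 10.7 FPKM in NG (median 7.27) and from 10.2 to 15.7 FPKM in HG (median 13.1) (adjusted p = 1.1e-13, log2 fold change 0.72 with SE 0.06), Nuak1 rose by 0.48, Camkk1 by 0.32 and Mark3 by 0.31. Insulin and IGF signalling had 8 rises (14.3%) and 12 falls (21.4%) of 56, under and near the background. It included falls of Igf1 (-0.96), Igfbp3 (-0.51) and Pik3r1 (-0.24) and rises of Sos1 (0.26) and Grb14 (0.25).

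Among developmental signals, Wnt signalling had 5 rises (10.4%) and 13 falls (27.1%, near the 21.8% of all tested) of 48, and the falls included both the antagonist Wif1 (-0.34) and Axin2 (-0.33), a target gene that Wnt signals raise, while Fzd1 (1.02) and Wnt5a (0.42) rose. With quantile normalization 11 of this list rose and 11 fell. TGF-β, BMP and Notch genes had 5 rises (11.4%, against 17.7% of all tested) and 12 falls (27.3%, near the 21.8% of all tested) of 44. Notch1 ranged from 1.41 to 2.65 FPKM in NG (median 1.90) and from 0.752 to 1.57 FPKM in HG (median 1.12) (adjusted p = 2.9e-11, log2 fold change -0.48 with SE 0.05), and its coactivator Maml3 fell (-0.32), whereas Ltbp1 (0.81), Tgfb2 (0.53) and Id4 (0.67) rose. Nuclear receptors fell in 10 of 30 cases, among them the retinoic acid receptor Rara (-0.46) and the vitamin D receptor Vdr (-0.40), and rose in 3, with Nr3c1 at 0.19. Of 19 clock genes, 3 rose (15.8%) and 5 fell (26.3%), against 17.7% and 21.8% of all tested. Dbp (-0.45), Npas2 (-0.28), Nr1d2 (-0.24), Nr1d1 and Per2 (-0.15) fell, and Arntl (now Bmal1, 0.23), Csnk1e (0.15) and Bhlhe40 rose. Immediate early and CREB target genes rose in 10 of 40 cases, with Junb at 0.36, Fosl2 at 0.72 and Klf10 at 0.27, and fell in 3.

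Calcium proteins changed in both directions, with 15 of 64 up (23.4%) and 18 down (28.1%). The exchanger Slc8a2 (0.92), the kinase Camk2a (0.90) and Rcan1 (0.43), an inhibitor of calcineurin, rose next to S100a4, whereas the pump Atp2b1 (-0.28), Vsnl1 (-0.40) and the release channel Ryr2 (-0.33) fell. At the cell surface, the matrix list had 10 rises and 12 falls of 37. Lamb3, a laminin chain of epithelial basement membranes, ranged from 11.8 to 16.6 FPKM in NG (median 13.8) and from 22.3 to 31.8 FPKM in HG (median 28.6), without overlap (adjusted p = 4.0e-21, log2 fold change 0.96 with SE 0.05), and the protease Mmp17 rose by 1.35. The proteoglycans Spock1 (-0.68) and Spock2 (-0.49) and the collagen Col9a1 (-0.66) fell, and the syndecans moved apart, with Sdc1 (0.37) and Sdc3 (0.31) up and Sdc4 (-0.50) down. Adhesion and guidance genes had 18 rises and 22 falls of 72. The guidance ligands Slit1 (0.35) and Slit2 (0.44) rose while their receptor Robo2 (-0.65) fell, L1cam rose by 0.55, and the netrin Ntn1 (-0.39) fell with its receptor Unc5c (-0.58) while another, Unc5a (0.42), rose.

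Several large lists had few calls or shares near the background (17.7% raised, 21.8% lowered). Splicing factors had 15 rises (11.3%) and 16 falls (12.0%) of 133, both shares under the background, with Hnrnpa1 (0.21) and Snrpa (0.21) raised and Elavl4 (-0.29) lowered. Chromatin modifiers had 15 rises and 14 falls of 95 (15.8% and 14.7%), with Ezh2 (0.18) up and Cbx7 (-0.32), of the other Polycomb complex, down. The proteasome had 8 rises of 49 (16.3%) and 4 falls (8.16%, under the background). Rises and falls numbered 8 and 7 of 45 for cytosolic chaperones, 7 and 11 of 49 for Rab GTPases and 8 and 7 of 37 for hypoxia genes. Among chaperones the large heat shock protein Hsph1 fell (-0.52) and the cochaperone Bag3 rose by 0.30. Zinc finger genes of the Zfp family rose in 11 of 166 cases (6.63%) and fell in 36 (21.7%), with Zfp189 (0.84) as an exception that rose without overlap. Genes that β-cells normally silence, such as Slc16a1 (0.33), which carries lactate and pyruvate, rose in 9 of 34 cases and fell in 6. Together, the 71 lists held 3324 transcripts, 31.6% of those tested, of which 769 rose and 669 fell.

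**Figure D5:**
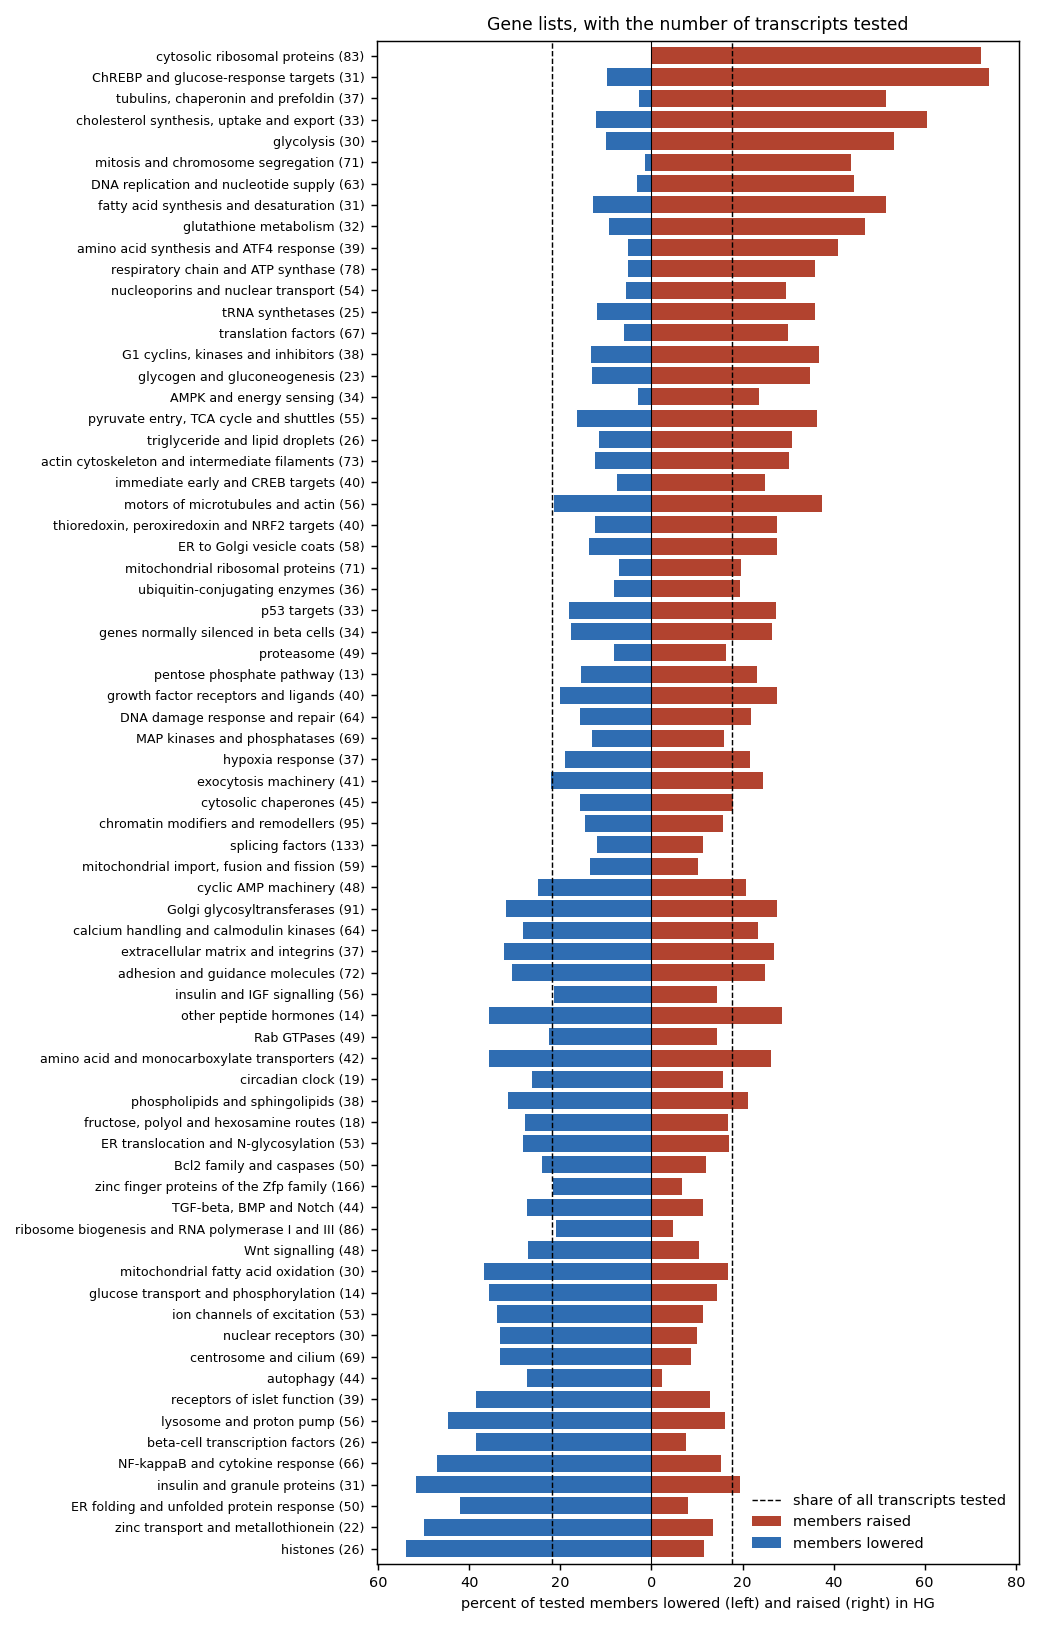
Percent of the tested transcripts of each of 71 gene lists that rose (right) and fell (left) with HG, as bars from 0, with dashed lines at the shares over all tested transcripts (17.7% raised, 21.8% lowered). The ChREBP, ribosomal protein and cholesterol lists reach farthest to the right, and the histone, granule protein and zinc lists are among those farthest to the left.

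Measured in FPKM rather than in folds, the largest falls lay in a few abundant transcripts, whereas the rises were spread more widely. The 83 tested transcripts of cytosolic ribosomal proteins together went from 99960 to 108600 FPKM as deposited. The largest called rise of a single transcript was 945 FPKM (Chgb). Among transcripts past the threshold, the 10 largest rises of the mean were in Chgb, Gapdh, Rps18, Tmsb10, Eef1a1, Rpl39, Eno1, Fabp5, Ambp and Rps27a. The 10 largest falls were in Ins1, Ins2, Iapp, Gnas, Pcsk2, Cd63, Ubb, Enpp2, Slc30a8 and Tmsbl1. The change of the mean was -18183 FPKM for Ins1 and -1926 FPKM for Iapp. Ambp, the precursor of α1-microglobulin and of an inhibitor of proteases, ranged from 275 to 474 FPKM in NG (median 356) and from 546 to 763 FPKM in HG (median 645), without overlap (adjusted p = 6.4e-17, log2 fold change 0.86 with SE 0.06). Enpp2, autotaxin, which makes lysophosphatidic acid, ranged from 303 to 611 FPKM in NG (median 455) and from 189 to 364 FPKM in HG (median 247), with overlap (adjusted p = 1.3e-11, log2 fold change -0.81 with SE 0.08). The tetraspanin Cd63 fell (-0.28), the thymosin Tmsbl1 (-0.28) and the ubiquitin gene Ubb (-0.05), a change near the limit of the test (adjusted p = 0.044) that was not called with median-ratio scaling or without HG replicate 13 and was at 0.15 after quantile normalization.

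With 20 libraries per group, small changes were separated from the spread. Among changes under 0.5 in size, the rises with the smallest adjusted p included Ncbp1, of the cap-binding complex, which rose from 67.0 ± 3.59 to 93.3 ± 3.38 FPKM (adjusted p = 1.1e-21, log2 fold change 0.47 with SE 0.02), and Cad, the enzyme that starts pyrimidine synthesis, from 13.9 ± 0.817 to 18.2 ± 0.812 FPKM (adjusted p = 3.1e-16, log2 fold change 0.36 with SE 0.02). Also among these 10 rises were the sorting receptor Sorcs2 (0.47), the formin Fhod3 (0.48), the exchanger Slc24a2 (0.50), the Polycomb protein Rybp (0.39), Tmsb10, Mark3, Scd and Sdc1. The corresponding falls were, besides Slc30a8, Rph3al, Glud1, Gstz1 and Slc37a4, the iron transporter Slc11a2 (-0.43), Nsg2 (-0.31), Tmem164 (-0.50), Tmem8a (now Pgap6, -0.42) and RGD1309313 (-0.43). Slc11a2 fell from 21.2 ± 1.57 to 15.5 ± 1.13 FPKM (adjusted p = 6.6e-15, log2 fold change -0.43 with SE 0.03).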

How the data were processed

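RNA of 20 NG and 20 HG libraries was used. According to the paper and the submitters' processing notes, the authors checked reads with FastQC 1.0.0, aligned them to build rn5 with TopHat and Bowtie and deposited FPKM per RefSeq transcript from Cufflinks, so that values depend on the library total and on how reads were divided between isoforms. Of 18331 entries, 469 repeats of an accession with the same values were left out (149 with a mean of at least 1 FPKM), and 17862 under 17031 symbols were kept. Spreadsheet conversion had replaced 28 names by numbers, of which 27 were recovered by accession. Accessions were matched to RefSeq of GRCr8 (16769 matched) for lengths, current names and promoters. Depth was derived from 62131 low values, 87.3% of which gave a whole read number (tolerance 0.05). This rests on an assumed effective length of the transcript less 202 bases, and precision at low levels is limited by these reads. A count test was not run, because FPKM give whole reads for part of the values.

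Transcripts averaging at least 1 FPKM over the 40 libraries were tested on log2(FPKM + 1) in limma 3.58.1 (R 4.3.3, trend and robust options) with Benjamini-Hochberg adjustment, without pairing. The fit was tested on simulated data. The gene lists, the rule for named genes and the comparison were chosen with earlier results of these data known. The rule took the 10 largest called rises and falls in log2 fold change and in FPKM. It also took the 10 smallest adjusted p in each direction among called changes under 0.5 and up to 5 called members of each list in each direction. All members of 6 lists, up to 5 symbols with opposed isoforms and 10 transcripts under 1 FPKM were added. Some genes that the rule took are not reported here. Genes outside it, named after values were seen, were Abcc8, C1galt1c1, Calr, Canx, Crabp1, Creld2, Derl3, Dnajc3, Fasn, Gcg, Gins1, Hsd17b12, Hsp90b1, Kcnj11, Mcm6, Ntn1, Pdha1, Scd1, Slc16a1, Tyms and Xbp1. Promoters were searched for 10 motifs. Of those not described above, the amino acid response element (TTGCATCA) was in 6 of 29 promoters of its list, 1 of a raised gene. It was in 1.12% of raised, 0.33% of lowered and 0.62% of tested promoters. The cyclic AMP response element (TGACGTCA) was in 8 of 31 promoters of its list. Its shares were 3.43% of raised, 2.42% of lowered and 3.49% of tested promoters. The sterol, CLEAR and antioxidant elements were in at most 2 promoters of their lists. Alternatives were another pseudocount, other filters, quantile normalization, median-ratio scaling, the replicate block, each set of 15 sample numbers alone or the set as a term, sums per symbol, no transcripts under 300 bases, no trend or robust options, the exclusion of HG replicate 13 and, chosen after seeing the data, repeated entries kept. Further software was Python 3.11.15, pandas 2.3.3, numpy 2.4.6 and, for figures, matplotlib 3.10.9.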

Additional observations from a re-analysis of the deposited data

How the results depend on the processing

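The counts over all transcripts (1856 raised, 2292 lowered) stayed within 1.5 times under each alternative that used all libraries. They were 2067 and 2092 with median-ratio scaling, 1941 and 2132 after quantile normalization, 1604 and 1844 at a minimum of 5 FPKM and 1861 and 2269 without HG replicate 13. The fit with the replicate block gave 2374 and 2948. Same-numbered libraries deviated together in part, with a mean correlation of deviations of 0.17 (0.04 to 0.32), against -0.01 between other numbers, and 17 of 40 libraries were closest to their own number. The numbers were not taken as pairs in the main fit. A correlation over 0.1 in every pair was required, which is a chosen limit, and 14 of 20 reached it. In addition, no label states what a number shares. Where a transcript is said not to have passed, this refers to the fit without pairing, and some, such as Gcg, passed with the block. The sets of consecutive sample numbers alone, with 5 libraries per group and so less power, gave 481, 436, 531 and 769 raised and 438, 366, 527 and 787 lowered transcripts. Of 444 named transcripts past the threshold, 241, 237 and 273 were called in the same direction in the first 3 sets alone.

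Among 520 transcripts that the rule named, calls were lost by 1 with a pseudocount of 0.1, by 3 without a filter, by 4 with median-ratio scaling, by 15 after quantile normalization and by 3 without HG replicate 13, and the replicate block added 17. Directions turned after quantile normalization for Iapp (0.17), Ubb (0.15), Chga (-0.03) and Cpe (-0.07). With FPKM summed per symbol, the isoforms that had opposed their symbol turned by construction, to -0.08 for 2 Gnas transcripts, -0.17 for Gpsm1, 0.06 for Tacc2, -0.03 for Hcfc1r1 and 0.00 for Ptpn11. In single sets Bcl2 was at 0.07 (set 2), and Mir23b at 0.21, Tnfrsf12a at 0.04 and Hcfc1r1 at -0.01 (set 3). The cause of these turns was not tested.

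Of 142 counts (71 lists, 2 directions), 4 moved by over 1.5 times with median-ratio scaling, 8 after quantile normalization, 12 at a minimum of 5 FPKM, where fewer transcripts were tested, 25 with the replicate block and 0 with a pseudocount of 0.1 or without a filter. Median-ratio scaling raised the count of raised mitochondrial import genes from 6 to 10 and lowered that of lowered splicing factors from 16 to 8. Lists whose counts lean on transcripts under 5 FPKM included lowered adhesion genes (22 to 13), lowered Wnt genes (13 to 6), lowered nuclear receptors (10 to 5) and raised matrix genes (10 to 5). For low transcripts depth was the limit, since 1 FPKM was 16.3 reads at the median length and depth.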

Other observations

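Of 300 symbols with at least 2 tested transcripts, 41 had at least 2 past the threshold, and in 5 of these the transcripts moved in opposite directions. For Gpsm1, a regulator of G protein subunits, the transcript of 1968 bases fell from 33.0 ± 4.59 to 21.0 ± 2.85 FPKM (adjusted p = 9.8e-13, log2 fold change -0.63 with SE 0.06) and that of 3408 bases rose from 27.9 ± 1.87 to 32.9 ± 2.65 FPKM (adjusted p = 2.5e-07, log2 fold change 0.23 with SE 0.03). For Gnas, the stimulatory G protein, the main transcript fell from 4123 ± 443 to 3696 ± 427 FPKM (adjusted p = 0.0089, log2 fold change -0.16 with SE 0.05), while that of 1901 bases ranged from 0.0404 to 283 FPKM in NG (median 137) and from 97.7 to 493 FPKM in HG (median 251) (adjusted p = 0.0077, log2 fold change 1.51 with SE 0.46). For Hcfc1r1 the values were -0.13 and 0.17, for Ptpn11, the phosphatase SHP2, 0.24 and -0.45, and for Tacc2 -0.19 and 0.27, given in order of level in NG. Cufflinks divides reads that isoforms share, so a shift between isoforms is an estimate that was not tested against junction reads.

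Under the minimum of 1 FPKM, 4603 transcripts were detected and were fitted together with the rest when no filter was used, and 187 of these rose and 231 fell. Col5a3, a fibrillar collagen chain, ranged from 0.0845 to 0.521 FPKM in NG (median 0.269) and from 0.953 to 2.00 FPKM in HG (median 1.44), so the groups did not overlap (log2 fold change 0.90, SE 0.05, adjusted p = 1.7e-18). Tns1, tensin, which ties integrins to actin, ranged from 0.119 to 0.408 FPKM in NG (median 0.230) and from 0.522 to 1.03 FPKM in HG (median 0.824), again without overlap. Further rises among the 10 transcripts with the smallest adjusted p were Cilp2 (mean 0.395 to 1.22 FPKM), Cpamd8 (0.448 to 1.24 FPKM), Mug2 (0.460 to 1.25 FPKM) and the Wnt antagonist Dkk2 (0.123 to 0.518 FPKM). The others were Tmc3 (0.218 to 0.885 FPKM), the myosin Myh7b (0.485 to 1.12 FPKM) and the pseudogene Tnxa-ps1, which was listed at 0 in 14 of 20 NG libraries and reached 0.561 to 2.40 FPKM in HG. Icam5, an adhesion molecule of neurons, was the fall in this group, from 0.512 to 1.14 FPKM in NG (median 0.826) to 0.0809 to 0.618 FPKM in HG (median 0.302), with an overlap of the groups. On the log2(FPKM + 1) scale these changes are understated.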
